A study of Mus musculus with 12 samples.

Results

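The genes described here are 31 genes of sterol and fatty acid synthesis, measured in mouse spleen by RNA-seq. They were taken as a list of gene symbols, and all 31 were found among the 53715 genes of the count table and passed the filter on low counts, as did 18542 genes in all. The spleens came from mice of the genotype BXSB.Cg-Cd8atm1Mak Il15tm1Imx Yaa, called Yaa DKO, a lupus-prone strain that carries the Yaa locus and targeted alleles of Cd8a and Il15. All 12 libraries share that genotype, so no group here lacks the Yaa locus or carries intact Cd8a and Il15, and the controls are untreated mice of the same strain. In all, 4 libraries (replicates 1 to 4) came from untreated mice at 6 weeks, the pre-symptomatic age, 4 (replicates 5 to 8) from untreated mice at 10 weeks, the symptomatic age, and 4 (replicates 9 to 12) from mice at 10 weeks given 2-deoxyglucose (2DG) at 6 g/L in drinking water, taken freely. 2DG is a glucose analogue that blocks glycolysis. The labels do not say that each library is a separate mouse, so p-values measure the spread between these libraries, part of which may be technical.

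Cholesterol is built from acetyl-CoA through mevalonate, farnesyl diphosphate, squalene and lanosterol, and fatty acids are built from the same acetyl-CoA through malonyl-CoA. Genes of both branches are switched on by the sterol regulatory element-binding proteins, SREBP-1 and SREBP-2, the products of Srebf1 and Srebf2. The precursors sit in the endoplasmic reticulum with the escort protein SCAP. When sterols are plentiful the Insig proteins hold the complex there, and when sterols are scarce COPII vesicles carry it to the Golgi, where proteases free the active factor. Dividing and antibody-secreting lymphocytes use this pathway to build membrane.

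Library totals ran from 15596040 to 26079979 counts. Cd8a had 582 to 1414 counts and Il15 82 to 169 counts per library, and gene totals do not show which part of an altered gene gave them. Untreated 10-week replicate 6 stood apart in its markers. It had the lowest summed erythroid level of all 12 libraries (2645 CPM, counts scaled to library size, against 6704 to 25278 in the 11 others), the lowest summed cell-cycle level (1862 CPM, against 2317 to 4432) and the highest summed macrophage level (4108 CPM, against 1502 to 2714). The 10 genes listed as expressed in fat summed to 132 CPM in that library against 53.6 to 82.1 CPM in the 11 others, while the fat-cell genes Adipoq, Plin1, Cidec and Lep reached at most 42, 25, 15 and 1 counts in any library. Lpl had the most counts of the 10 in every library, at 690 to 2434, where Fabp4 had 126 to 618. Replicate 6 was also the lowest of the 12 for mature B cell markers (4087 CPM, against 4790 to 7196) and germinal centre B cell markers (137 CPM, against 186 to 390) and the highest for neutrophil markers (3490 CPM, against 463 to 2647). Counts of called members, medians and the members most moved are given with and without this library. All marker sums here are plain totals of CPM, so the most abundant genes of a list weigh most. The largest count of a gene in any library was 247241 in the erythroid list, 113220 in the plasma cell list and 48938 in the cell-cycle list.

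Per length of annotated exon, the module spanned a wide range of levels in spleen. The highest was Scd1, a stearoyl-CoA desaturase, at 111 ± 5.62 RPKM (CPM per kilobase of exon, SD, n = 4) at 6 weeks, followed by the citrate lyase Acly at 50.03 ± 1.98 RPKM, the elongase Elovl5 at 33.9 ± 2.11 RPKM, the desaturase Scd2 at 31.04 ± 3.48 RPKM and Srebf2 at 30.5 ± 1.66 RPKM. The last 3 lay within their spread of each other at that age. Ebp, the sterol isomerase late in cholesterol synthesis, was the highest sterol enzyme at 15.5 ± 0.89 RPKM. The lowest were Acaca, the acetyl-CoA carboxylase of fatty acid synthesis, at 1.08 ± 0.08 RPKM, the farnesyl diphosphate synthase Fdps at 0.79 ± 0.06 RPKM and the isopentenyl diphosphate isomerase Idi1 at 0.36 ± 0.09 RPKM. Spleen is a mixture of cells, and in such bulk tissue fewer cells of a type and less RNA per cell cannot be told apart.

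**Figure D1:**
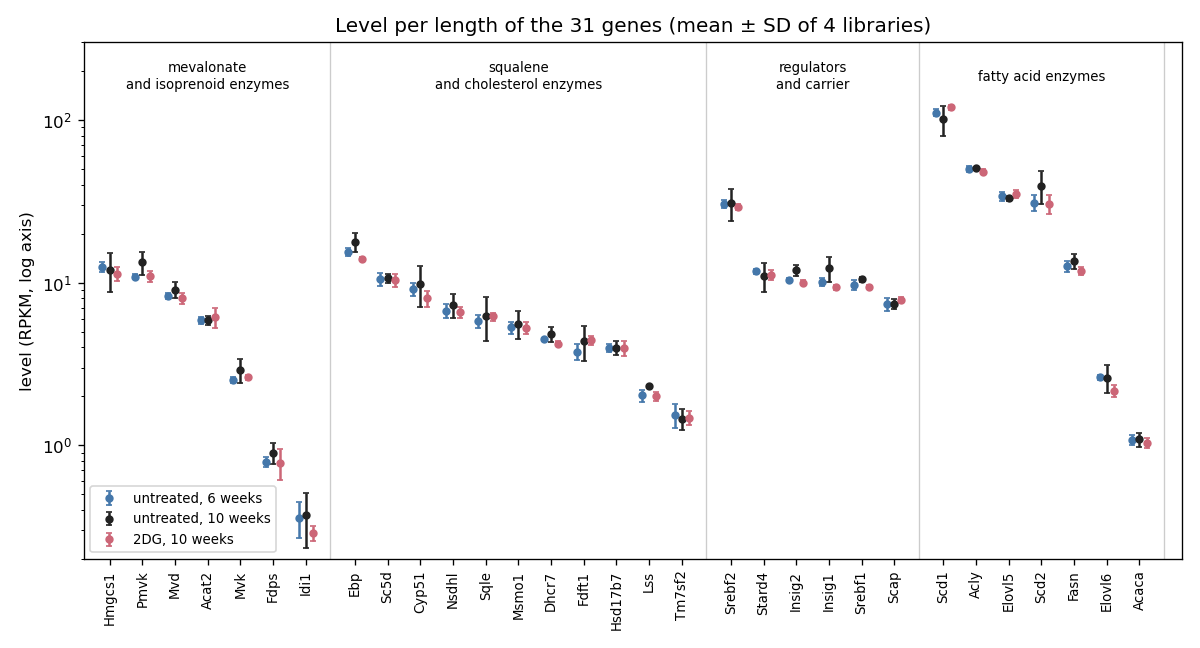
Level per length (RPKM, log axis) of each of the 31 genes, grouped by role; points are means and bars SD of 4 libraries, blue for untreated 6 weeks, black for untreated 10 weeks and red for 2DG at 10 weeks. Scd1, Acly, Elovl5, Scd2 and Srebf2 sit at the top, Idi1 and Fdps at the bottom, and most black bars are longer than the others.

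The low values of some members depend on how reads shared with near-identical copies were assigned. The submitters' notes name the tool RSEM 1.2.12, but no source used here states the steps or settings. Fdps had 49 to 106 counts per library and its pseudogene Gm3571 had 50 to 124, more than Fdps in 12 of 12 libraries. Idi1 had 17 to 48 counts and its pseudogene Gm13502 had 44 to 124, again more in 12 of 12 libraries. Acaca had 320 to 457 counts beside 263 to 399 for the pseudogene Gm5182. Acat2, the cytosolic thiolase at the start of the mevalonate pathway, shares 39.1% of its 50-base words with other genes, mostly Acat3. The levels of Fdps, Idi1, Acaca and Acat2 are therefore uncertain. Reads from genes that overlap on opposite strands cannot be told apart either, because the library kit does not mark strand. This touches Fdft1 (overlapping Ctsb), Cyp51 (Akap9), Hmgcs1 and Lss among others. Insig2 overlaps Gm37174 by position, but shares 0% of its 50-base words with other genes.

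In the 2DG-treated mice at 10 weeks, 3 members were lower than in untreated mice of that age: Insig1, Insig2 and Ebp. Insig1 and Insig2 encode the endoplasmic reticulum proteins that retain the SREBP escort SCAP, and Insig1 is itself a classic SREBP target. No member passed the test as higher. By edgeR's quasi-likelihood test at an adjusted p of 0.05 over all genes tested, 3 of 31 members (9.68%) were called, all lower, beside 7.42% of all 18542 genes called and 5.26% called lower. The members' share was thus near that of all genes. The fitted log2 changes were negative for 24 members and positive for 7, with a median of -0.14, where the median over all genes was 0.01. At an unadjusted p of 0.05, 9 members (29.0%) and 24.5% of all genes passed. DESeq2 also called 3 members.

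Insig1 stood at 41.1, 31.6, 45.7 and 32.99 CPM in the untreated 10-week replicates 5 to 8 and at 27.3, 29.4, 29.2 and 29.6 CPM in the treated replicates 9 to 12. The groups did not overlap, and replicates 5 and 7 were well above the rest. The 6-week libraries stood at 32.2, 31.4, 32.4 and 28.9 CPM, between both 10-week groups in their mean (31.2 ± 1.60 CPM). The fitted treated level was 0.763 times the untreated one (log2 change -0.39, SE 0.11, 95% interval -0.62 to -0.16, adjusted p = 0.0417).

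Insig2 stood at 43.5, 44.0, 37.4 and 40.2 CPM in the untreated and at 36.3, 34.6, 33.7 and 34.1 CPM in the treated 10-week libraries. Here all 4 untreated libraries, replicate 6 included, lay above all 4 treated ones. At 6 weeks Insig2 held to 37.0, 35.8, 36.5 and 35.5 CPM. The treated level at 10 weeks was 0.840 times the untreated one (log2 change -0.25, SE 0.06, 95% interval -0.39 to -0.11, adjusted p = 0.0314).

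Ebp converts zymosterol-type intermediates by moving a double bond in the sterol ring. Its level was 45.6, 39.8, 44.8 and 34.1 CPM in the untreated 10-week libraries, 31.7, 31.5, 33.3 and 32.98 CPM in the treated ones and 38.4, 34.2, 36.3 and 33.9 CPM at 6 weeks. The treated libraries lay below every library of both other groups, although untreated replicate 8 was only just above them. The treated level at 10 weeks was 0.789 times the untreated one (log2 change -0.34, SE 0.09, 95% interval -0.53 to -0.15, adjusted p = 0.0326).

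These 3 calls lay close to the threshold and each was lost when single libraries were left out. In a fit of only the 2 groups compared none of the 3 passed, with adjusted p-values of 0.114 for Insig1, 0.101 for Insig2 and 0.0911 for Ebp. Without 2DG replicate 10, 11 or 12, or without untreated 10-week replicate 5, none of the 3 passed. Ebp was also lost without untreated replicate 7 or 2DG replicate 9, with an adjusted p of up to 0.103 over the leave-one-out fits. Insig1 was also lost without those 2 libraries and without each 6-week replicate, with an adjusted p of up to 0.116. Insig2 was also lost without untreated replicate 6 or 6-week replicate 2, with an adjusted p of up to 0.0975. The log2 change stayed negative in all 20 alternative fits for each of the 3 genes, from -0.47 to -0.29 for Insig1, -0.30 to -0.22 for Insig2 and -0.43 to -0.29 for Ebp when 1 library was left out.

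**Figure D2:**
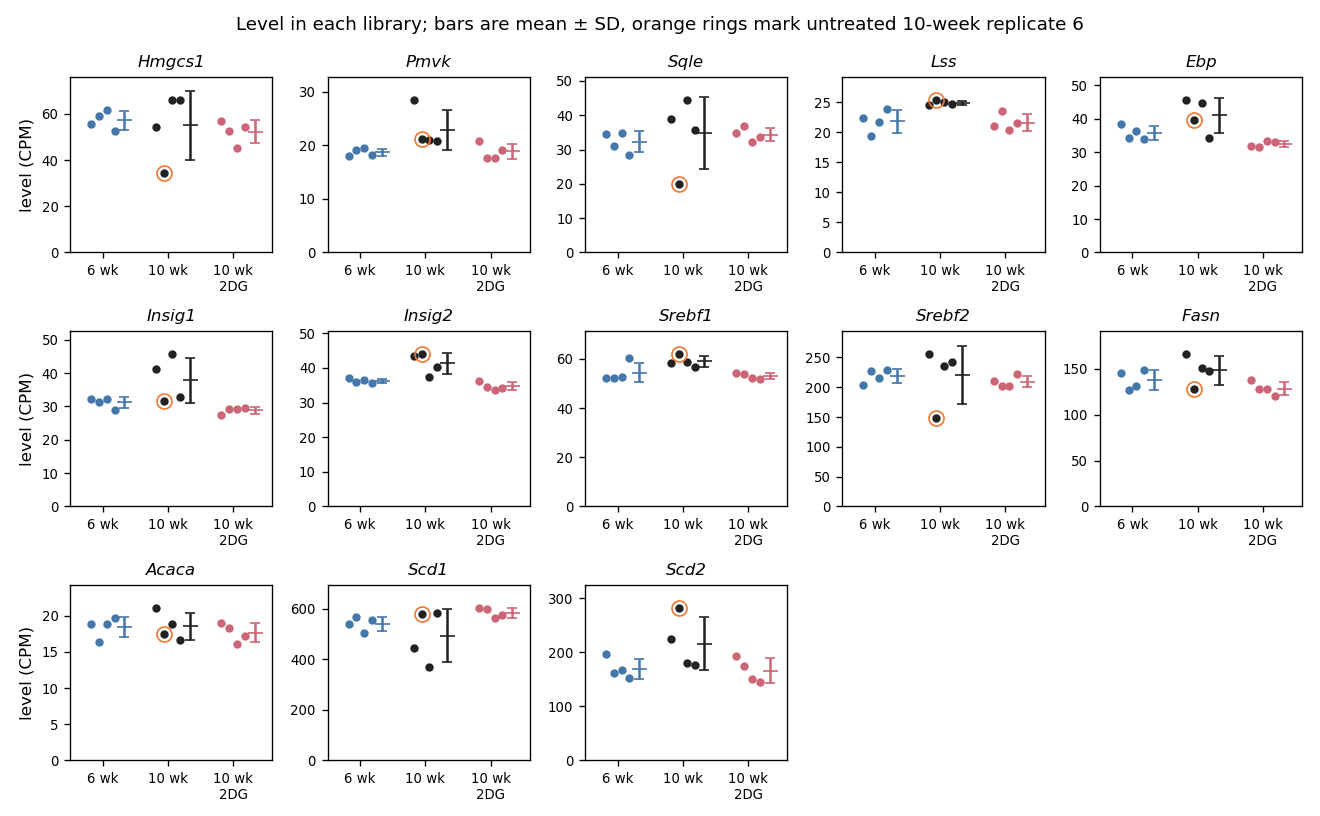
Level (CPM, linear axis from 0) of 13 members in each of the 12 libraries, as points by group, with mean ± SD beside each group; orange rings mark untreated 10-week replicate 6. Ebp, Insig1, Insig2, Lss and Srebf1 show every treated point below every untreated 10-week point, and the ringed library is the lowest of all for Hmgcs1, Sqle and Srebf2.

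For 5 members (16.1%), Lss, Ebp, Insig1, Insig2 and Srebf1, all 4 treated libraries lay below all 4 untreated 10-week libraries, which was true of 7.91% of all genes. No member was separated upward, against 4.48% of all genes. Lss, which closes squalene epoxide into lanosterol, was tight at 24.5, 25.4, 25.04 and 24.7 CPM in the untreated 10-week libraries and 21.0, 23.5, 20.4 and 21.6 CPM in the treated ones. The groups did not overlap, yet Lss did not pass the test (log2 change -0.20, 95% interval -0.37 to -0.04, adjusted p = 0.118). Srebf1 stood at 58.4, 61.9, 58.7 and 56.9 CPM untreated and 54.3, 53.7, 52.0 and 51.7 CPM treated. Its groups at 10 weeks did not overlap, and it too missed the threshold (log2 change -0.16, 95% interval -0.29 to -0.03, adjusted p = 0.126).

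The 7 enzymes of the mevalonate and isoprenoid steps had 6 negative changes and a median of -0.17, with none called. Pmvk, the phosphomevalonate kinase, stood at 28.4, 21.1, 20.9 and 20.8 CPM untreated and 20.8, 17.7, 17.7 and 19.2 CPM treated at 10 weeks. Untreated replicate 5 lay far above its group and treated replicate 9 overlapped with the untreated range (log2 change -0.27, 95% interval -0.50 to -0.05, adjusted p = 0.128). Without untreated replicate 5 the Pmvk change was -0.15. Hmgcs1, the cytosolic HMG-CoA synthase, stood at 54.4, 34.3, 65.8 and 65.9 CPM untreated and 56.8, 52.4, 45.2 and 54.1 CPM treated. Its untreated range enclosed the treated one because of the low replicate 6, and the change was -0.08 (95% interval -0.44 to 0.28, adjusted p = 0.820). The changes of the others were -0.15 for mevalonate kinase, Mvk, -0.17 for mevalonate diphosphate decarboxylase, Mvd, -0.21 for Fdps, -0.38 for Idi1 (95% interval -0.96 to 0.19) and 0.07 for Acat2.

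Among the 11 enzymes from squalene to cholesterol, 9 changes were negative and 2 positive (Fdft1 and Tm7sf2), with a median of -0.09 and Ebp alone called. Squalene epoxidase, Sqle, a rate-limiting step, had the widest spread over untreated 10-week libraries of the 13 members given per library. It stood at 38.8, 20.0, 44.4 and 35.7 CPM untreated and 34.8, 36.7, 32.1 and 33.8 CPM treated at 10 weeks. The treated libraries lay inside the untreated range (log2 change -0.02, 95% interval -0.42 to 0.39, adjusted p = 0.973). Cyp51, the lanosterol demethylase, had a change of -0.29 (95% interval -0.69 to 0.11) and Dhcr7, the last sterol reductase of one arm, of -0.19 (95% interval -0.36 to -0.03, adjusted p = 0.142). The squalene synthase Fdft1 (0.02), the sterol reductase Tm7sf2 (0.02), the methyl oxidase Msmo1 (-0.09), the decarboxylating dehydrogenase Nsdhl (-0.14), the ketoreductase Hsd17b7 (-0.01) and the desaturase Sc5d (-0.04) did not pass either.

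Of the regulators, Srebf2 was far above Srebf1 per length and did not pass the test. It stood at 256, 149, 235 and 242 CPM untreated and 211, 203, 203 and 222 CPM treated at 10 weeks. Untreated replicate 6 was the lowest of all 12 libraries, and the other 3 untreated libraries lay above every treated one (log2 change -0.07, 95% interval -0.36 to 0.21, adjusted p = 0.787). The fitted change was 0.08 for Scap (95% interval -0.08 to 0.24) and 0.02 for the sterol carrier Stard4 (95% interval -0.24 to 0.27), neither past the threshold.

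Among the 7 fatty acid enzymes, 5 changes were negative and 2 positive, with a median of -0.07 and none called. Fasn, the fatty acid synthase itself, stood at 166, 129, 151 and 148 CPM untreated and 138, 128, 128 and 120 CPM treated at 10 weeks. The groups overlapped through untreated replicate 6 (log2 change -0.21, 95% interval -0.38 to -0.03, adjusted p = 0.140). Acaca stood at 21.1, 17.5, 18.8 and 16.7 CPM untreated and 19.1, 18.3, 16.1 and 17.3 CPM treated. The groups overlapped, although treated replicate 11 lay below and untreated replicate 5 above the whole other group (log2 change -0.07, 95% interval -0.27 to 0.13, adjusted p = 0.723).

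The desaturases Scd1 and Scd2 put a double bond into saturated fatty acids, and their changes had opposite signs. Scd1 stood at 444, 580, 368 and 585 CPM in the untreated 10-week libraries, at 603, 597, 563 and 575 CPM in the treated ones and at 541, 567, 503 and 555 CPM at 6 weeks. Untreated replicates 5 and 7, the same libraries that were highest for Insig1, were the lowest for Scd1 (log2 change with treatment 0.24, 95% interval -0.02 to 0.50, adjusted p = 0.240). Scd2 stood at 224, 282, 180 and 178 CPM untreated, 194, 176, 150 and 145 CPM treated and 197, 162, 167 and 153 CPM at 6 weeks. Its highest value was in untreated replicate 6, the library whose fat gene, macrophage and neutrophil sums were also the highest. Lpl gave the most counts of the fat list, and the part of any of these in the Scd2 level was not tested. The Scd2 change with treatment was -0.38 on the log2 scale (95% interval -0.70 to -0.06, adjusted p = 0.137). The changes of Acly (-0.07), Elovl5 (0.10) and Elovl6 (-0.27, 95% interval -0.55 to 0.01, adjusted p = 0.227) did not pass.

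**Figure D3:**
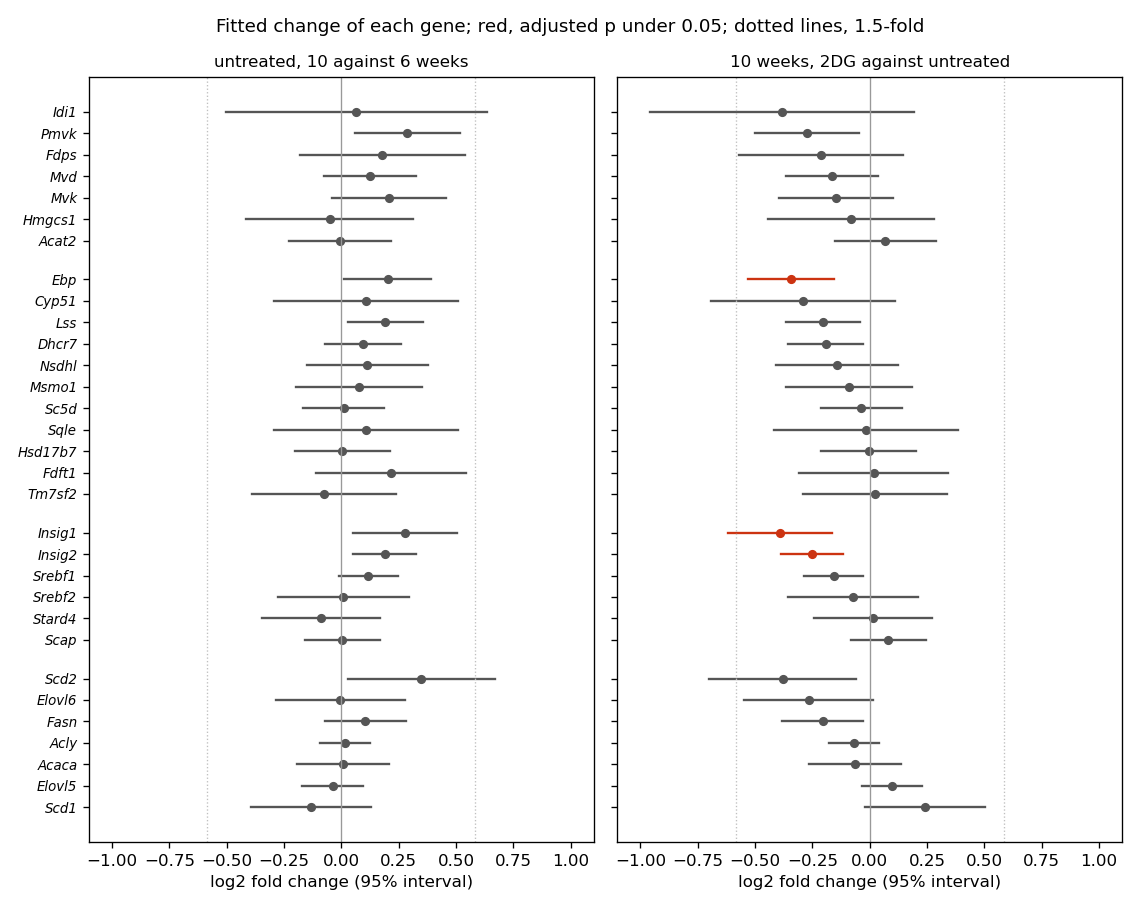
Fitted log2 fold change of each of the 31 genes with its 95% interval (horizontal axis), by role, for untreated 10 against 6 weeks (left) and 2DG against untreated at 10 weeks (right); red marks an adjusted p under 0.05 and dotted lines mark 1.5-fold. Ebp, Insig1 and Insig2 are red on the right at -0.34, -0.39 and -0.25, none is red on the left, and nearly all intervals lie inside the dotted lines.

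The size of the treatment difference can be read from these intervals, with a limit. They use a spread shared by the 3 groups, and the untreated 10-week libraries varied most. The median coefficient of variation over members was 15.1% there, 7.01% at 6 weeks and 7.29% in treated mice. Intervals against untreated 10-week mice may thus be too narrow. For 27 of 31 members the 95% interval at 10 weeks lay inside a 1.5-fold change in either direction. The exceptions were Idi1, Cyp51, Insig1 and Scd2, each of which reached past 1.5-fold lower.

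Between 6 and 10 weeks in untreated mice no member passed the test, where 0.00539% of all genes (1 gene, Cd8a) were called. At an unadjusted p of 0.05, 6 members passed (19.4%), all higher at 10 weeks, beside 17.1% of all genes, and DESeq2 called 0 members. Changes were positive for 24 members and negative for 7, with a median of 0.09 against 0.01 over all genes. Without untreated replicate 6 the median was 0.17, with 27 positive and 4 negative and none called, and without replicate 8 it was 0.08, with 20 positive and 11 negative. The smallest adjusted p-values were 0.171 for Insig2 (log2 change 0.19, 95% interval 0.05 to 0.32), 0.195 for Pmvk (0.29, 0.06 to 0.52) and 0.205 for Insig1 (0.28, 0.05 to 0.51). For 29 of 31 members the interval lay inside 1.5-fold, the exceptions being Idi1 and Scd2, and these intervals too may be too narrow.

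For Pmvk, Lss and Insig2 (9.68% of members) every untreated 10-week library lay above every 6-week library, as for 3.64% of all genes, and for 0 members the reverse held, against 3.33% of all genes. The 6-week levels were 17.9, 19.1, 19.4 and 18.1 CPM for Pmvk and 22.3, 19.4, 21.7 and 23.9 CPM for Lss. Hmgcs1 stood at 55.4, 59.1, 61.6 and 52.4 CPM, Sqle at 34.5, 31.1, 34.9 and 28.4 CPM and Srebf2 at 203, 228, 216 and 229 CPM at 6 weeks, each a narrower range than at 10 weeks. Srebf1 was at 52.4, 52.4, 52.4 and 60.3 CPM, Fasn at 145, 127, 131 and 149 CPM and Acaca at 18.9, 16.4, 18.8 and 19.6 CPM. The age comparison and the 2DG comparison use the same untreated 10-week libraries, so their opposite signs for a member are not independent.

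Treated 10-week mice against untreated 6-week mice gave no member past the threshold, with 0.129% of all genes called. At an unadjusted p of 0.05, 0 members passed where 16.9% of all genes did, and DESeq2 called 0 members. The spread used here is shared with the untreated 10-week libraries, which varied most, so the intervals of this comparison may be too wide. In a fit of only these 2 groups, 1367 genes were called in place of 24. No member passed in any of the 20 alternative fits, the smallest adjusted p being 0.0661 for Elovl6. The median change was -0.04, with 8 positive and 23 negative. Ebp, Dhcr7 and Elovl6 (9.68% of members) were lower in every treated library than in every 6-week library, against 7.69% of all genes, and no member was higher in every one, against 7.98%. The log2 changes of the 3 genes called at 10 weeks were -0.11 for Insig1 (95% interval -0.34 to 0.12), -0.06 for Insig2 (-0.20 to 0.07) and -0.14 for Ebp (-0.33 to 0.05).

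The untreated 10-week libraries differed most among themselves. For 21 of 31 members the coefficient of variation was largest in that group, with a median of 15.1% there against 7.01% at 6 weeks and 7.29% in treated mice. Over all tested genes the same medians were 16.6%, 10.3% and 9.66%. Within the group the widest were Idi1 (37.1%), Sqle (30.2%), Cyp51 (28.4%) and Hmgcs1 (27.0%), and the narrowest were Lss (1.5%) and Acly (2.2%).

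**Figure D4:**
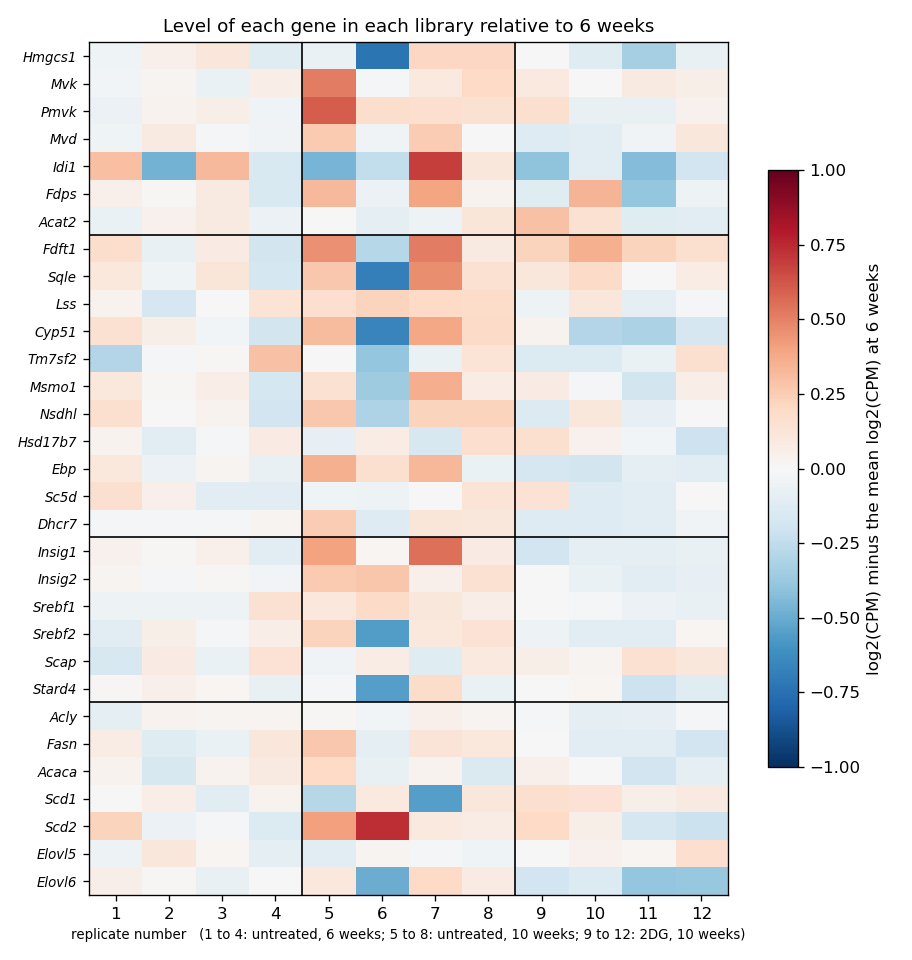
Level of each gene (rows, by role) in each library (columns, by group) as log2(CPM) minus the mean log2(CPM) at 6 weeks; red is above and blue below. Column 6 is blue for Hmgcs1, Sqle, Cyp51, Srebf2, Stard4 and Elovl6 and red for Scd2, while columns 5 and 7 are red for most sterol genes and blue for Scd1.

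Untreated replicate 6 held the lowest level of all 12 libraries for 11 members (35.5%): Hmgcs1, Fdft1, Sqle, Cyp51, Tm7sf2, Msmo1, Nsdhl, Dhcr7, Srebf2, Stard4 and Elovl6. It held the lowest of all 12 for 17.8% of all tested genes. Untreated replicate 5 did so for 18.1% of all tested genes and 3.23% of members. Untreated replicates 5 and 7 held the highest of all 12 for 9 and 10 members, for which the share over all genes was not computed. The median member deviation from the 6-week mean was -0.06 in replicate 6, against 0.20, 0.13 and 0.11 in replicates 5, 7 and 8, on the log2 scale. The 11 squalene and cholesterol enzymes deviated most in replicate 6, with a median of -0.29. Replicate 6 also had the lowest erythroid, cell-cycle, mature B cell and germinal centre B cell sums and the highest macrophage, neutrophil and fat sums, as given above, and their part in the low sterol gene levels was not tested.

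Without replicate 6, 7 members (22.6%) were lower in treated mice at 10 weeks, beside 9.71% of all genes called in either direction. These were Ebp, Insig1, Cyp51, Dhcr7, Srebf2, Fasn and Elovl6, while Insig2 just missed (adjusted p = 0.0502). Replicate 6 was the lowest of the 12 for Cyp51, Dhcr7, Srebf2 and Elovl6, and the lowest of its group for Fasn. Leaving it out therefore raises their untreated mean, and these added calls are no separate support. Cyp51 stood at 49.9, 25.4, 52.5 and 45.9 CPM in untreated replicates 5 to 8 and 41.0, 32.9, 32.3 and 35.7 CPM in treated ones, and its change went from -0.29 to -0.48 (adjusted p = 0.0106) without replicate 6. Srebf2 went from -0.07 to -0.23 (adjusted p = 0.0370). Elovl6, at 18.1, 11.9, 19.3 and 17.8 CPM untreated and 14.7, 15.3, 12.9 and 12.9 CPM treated, went from -0.27 to -0.40 (adjusted p = 0.0147). Dhcr7, at 31.3, 24.0, 28.6 and 28.3 CPM untreated and 24.1, 24.0, 24.4 and 25.6 CPM treated, went to -0.26 (adjusted p = 0.0255), and Fasn to -0.27 (adjusted p = 0.0380). The median change over the 31 members was then -0.22, with 26 negative, where that of all genes was 0.02.

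**Figure D5:**
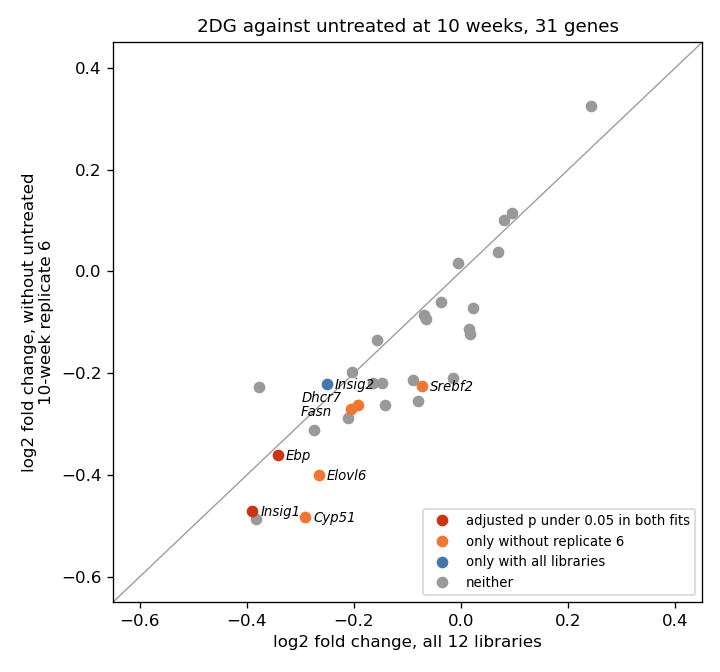
Log2 fold change of the 31 genes for 2DG against untreated at 10 weeks, with all 12 libraries (horizontal) and without untreated 10-week replicate 6 (vertical); the line marks equal values and colours mark an adjusted p under 0.05. Cyp51, Dhcr7, Elovl6, Fasn and Srebf2 pass only without that library, Ebp and Insig1 in both fits and Insig2 only with all libraries.

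Leaving out untreated replicate 8 in place of replicate 6 gave 3 members at 10 weeks (Ebp, Insig1 and Insig2), where 11.8% of all genes were called. With age it gave 1 member, Ebp, higher at 10 weeks (log2 change 0.28, adjusted p = 0.0343), where 8.33% of all genes were called. Replicate 8 was the lowest of its group for Ebp (34.1 CPM). Leaving it out therefore raises the untreated 10-week mean of Ebp, and this added call is no separate support. Leaving out replicates 6 and 8 together leaves 2 untreated 10-week libraries, replicates 5 and 7. These were the highest of their group for Insig1 and Ebp and the lowest for Scd1. Counts from this fit follow in part from that choice and are no separate support. In it 10 members (32.3%) were called with treatment beside 16.7% of all genes. Of these, 9 were lower (Pmvk, Mvd, Cyp51, Ebp, Dhcr7, Insig1, Srebf2, Fasn and Elovl6) and Scd1 was higher, with a change of 0.52 (adjusted p = 0.00132). With age, 7 members (22.6%) were then called beside 12.0% of all genes, with Pmvk, Fdft1, Sqle, Cyp51, Ebp and Insig1 higher and Scd1 lower at 10 weeks.

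Promoters are shown for the genes called with treatment and for Hmgcs1, because Insig1 and Hmgcs1 are textbook SREBP targets and the letters that SREBP and its partner NF-Y bind can be looked for in them. Of the 31 members 25 matched the RefSeq promoter table for GRCm38.p6. Not matched were Fdft1, Stard4, Fdps, Scd1, Sqle and Scd2. The 250 bases before each RefSeq start were searched on both strands. Each line gives sequence 5′ to 3′ on the gene's strand, with motif matches in capitals: TCACNCCAC, a sterol element, CACGTG, an E-box, and CCAAT, which reads ATTGG on the other strand. The windows are chr13:119690101-119690350 (plus strand) for Hmgcs1, chr5:28071162-28071362 (plus strand) for Insig1, chr1:121332590-121332839 (minus strand) for Insig2 and chrX:8193513-8193762 (minus strand) for Ebp. All lie outside annotated exons, and that of Insig1 ends 49 bases short of its RefSeq start for that reason.
Hmgcs1: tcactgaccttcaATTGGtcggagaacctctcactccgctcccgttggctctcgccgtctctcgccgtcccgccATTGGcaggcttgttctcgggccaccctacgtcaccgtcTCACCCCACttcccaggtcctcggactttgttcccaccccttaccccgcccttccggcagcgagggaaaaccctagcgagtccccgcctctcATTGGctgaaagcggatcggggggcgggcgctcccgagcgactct
Insig1: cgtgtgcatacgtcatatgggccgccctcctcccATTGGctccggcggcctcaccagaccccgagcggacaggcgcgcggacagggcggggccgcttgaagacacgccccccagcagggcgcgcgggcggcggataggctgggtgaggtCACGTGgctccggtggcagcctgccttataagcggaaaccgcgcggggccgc
Insig2: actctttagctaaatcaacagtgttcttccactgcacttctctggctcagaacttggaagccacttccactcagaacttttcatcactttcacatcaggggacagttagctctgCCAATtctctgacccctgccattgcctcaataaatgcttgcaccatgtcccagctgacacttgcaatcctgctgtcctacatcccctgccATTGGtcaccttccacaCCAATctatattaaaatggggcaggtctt
Ebp: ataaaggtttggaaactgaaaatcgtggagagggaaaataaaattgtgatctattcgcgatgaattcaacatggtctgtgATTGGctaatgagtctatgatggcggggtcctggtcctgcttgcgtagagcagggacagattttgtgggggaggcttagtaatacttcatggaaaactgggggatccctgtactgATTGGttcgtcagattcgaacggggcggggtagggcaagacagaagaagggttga

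In these windows Hmgcs1 holds the sterol element TCACCCCAC and 3 CCAAT matches. Insig1 holds an E-box and a CCAAT match, Insig2 holds 3 CCAAT matches and Ebp holds 2. Each of the 25 members is counted by the promoter whose RefSeq start lies nearest its annotated gene start, while the 32851 promoters are all entries, without such a choice. The shares below thus come from unlike sets, and enrichment was not tested. Over the 25 members, CCAAT was found in 19 (76%) against 33.8% of the 32851 promoters in the table. The GC box GGGCGG, not capitalised above, was found in 17 (68%) against 32.7%. CACGTG was found in 4 (16%: Hsd17b7, Sc5d, Insig1 and Elovl5) against 6.02%. TCACNCCAC was found in 1 (4%) against 1.05%. A match is a description of letters, not of binding.

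Companion genes of the pathway were tested in the same fit. Their lists, like the members, were chosen with earlier results of these data known. Of 9 tested other sterol and isoprenoid enzymes, 1 was lower with treatment at 10 weeks, Dhdds, a subunit of the enzyme that makes dolichol (log2 change -0.46, adjusted p = 0.0274). Of 17 genes of SREBP transport, processing and degradation, 4 were lower and none higher. All 4 are among the 7 COPII coat genes of that list, which serve secretion at large as well as SREBP transport: Sec24a (-0.95, adjusted p = 0.00176), Sec24d (-0.94, adjusted p = 0.00176), Sar1b (-0.43, adjusted p = 0.00946) and Sec23a (-0.35, adjusted p = 0.0209). The 3 other COPII genes did not pass: Sar1a (-0.23, adjusted p = 0.0704), Sec24c (-0.07, adjusted p = 0.406) and Sec24b (0.02, adjusted p = 0.838). Over all genes tested, 5.26% were called lower. Sec24a stood at 120, 100, 111 and 90.5 CPM in untreated and 61.1, 55.5, 48.6 and 52.7 CPM in treated 10-week libraries, with no overlap.

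Of 14 genes of cholesterol uptake, transport and storage, Gramd1a, an endoplasmic reticulum cholesterol transporter, was higher (0.39, adjusted p = 0.0458). In this comparison 7.42% of all genes were called in either direction. Of 11 liver X receptor targets and efflux genes, the phospholipid acyltransferase Lpcat3 was higher (0.36, adjusted p = 0.0456) and the phospholipid transfer protein Pltp lower (-1.06, adjusted p = 0.0306). Gramd1a and Lpcat3 lay close to the threshold, and their groups at 10 weeks overlapped. Pltp varied widely in untreated 10-week libraries, at 80.5, 79.1, 42.1 and 32.6 CPM, and stood at 30.5, 25.2, 25.3 and 31.2 CPM in treated ones. None of 20 other fatty acid genes passed, the nearest being Hsd17b12 (-0.27, adjusted p = 0.0753) and Acss2 (0.46, adjusted p = 0.0954). None of 19 activation and glycerolipid genes passed, the nearest being Gpam (-0.22, adjusted p = 0.0911) and Acsl1 (0.49, adjusted p = 0.108). With age, and for treated against 6-week mice, none of these companion genes passed.

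Cell-type markers moved in the same comparison. Of 13 plasma cell markers 12 were lower with 2DG at 10 weeks, and their summed level was 4485 to 7923 CPM in untreated, 2008 to 2995 CPM in treated and 2707 to 4863 CPM in 6-week libraries. The untreated libraries with the highest plasma cell sums were replicates 5 and 7, at 7923 and 7427 CPM, which were also the highest for Insig1 and Ebp and the lowest for Scd1. For Insig2, replicate 7 was instead the lowest of its group (37.4 CPM) and replicate 6 the highest (44.0 CPM). Erythroid markers had 11 of 11 positive changes with 1 called, Hba-a2, and summed to 2645 to 19259 CPM in untreated and 12067 to 25278 CPM in treated 10-week libraries. Mature B cell markers summed to 4087 to 7196 CPM in untreated and 6086 to 6836 CPM in treated 10-week libraries, with none of 10 called. Of 7 dendritic cell markers 3 were higher (Zbtb46, Clec9a and Cd209a), and of 7 monocyte markers 2 were lower (Fcgr1 and Ly6c2). In the macrophage (C1qa of 10) and germinal centre (Fas of 7) lists 1 marker each was lower. Beside these counts, 7.42% of all genes were called in this comparison and 5.26% were called lower. Cell-cycle genes had 13 of 13 positive changes, and neither they nor the 8 T cell, 9 neutrophil and 4 tested fat genes had a call. Liver markers reached at most 8 counts in any library. The part of these shifts in the lower Insig1, Insig2 and Ebp was not tested.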

How the data were processed

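RNA of whole spleen was poly(A)-selected and sequenced from libraries whose kit, named in the labels' protocols, keeps no strand. What the authors deposited is a table of raw whole-number counts, genes by 12 libraries. The submitters' processing notes name the build GRCm38 and the tools Bowtie2 2.2.0 and RSEM 1.2.12, but not their steps. Symbols, exons and overlaps came from GENCODE M21 (53620 of 53715 genes matched, and 17111 had no count), promoters from RefSeq. Counts were fitted with edgeR 4.0.16 (R 4.3.3, TMM, filterByExpr, robust quasi-likelihood) over all 12 libraries, checked on simulated data, with Benjamini-Hochberg adjustment over 18542 genes and a threshold of 0.05. The 95% intervals are t intervals from the fitted SE. CPM and RPKM were computed from TMM-scaled counts, and depth is the total count per library. Groups came from the sample titles. Members, companion lists and markers were chosen with earlier results of these data known. Values per library are given for called members, the 6 smallest p with treatment, the 3 smallest with age and 10 fixed members. Members called only without replicate 6 (Cyp51, Dhcr7 and Elovl6) were added after their values were seen. Alternatives were size factors, DESeq2 1.42.0, limma 3.58.1 voom weights, filters, fits of 2 groups, removal of immunoglobulin genes and each library left out.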

Additional observations from a re-analysis of the deposited data

Results flagged for a closer look

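In 5 of 93 tests of a member within a group, a library lay far from its 3 others by Dixon's criterion, where chance alone flags about 1 in 20 groups. Pmvk was 28.4 CPM in untreated 10-week replicate 5, against 20.8 to 21.1 CPM in the others. Nsdhl was 15.4 CPM in untreated 10-week replicate 6, against 22.3 to 23.0 CPM. Srebf1 was 60.3 CPM in untreated 6-week replicate 4, where the others were all at 52.4 CPM. Dhcr7 was 26.8 CPM in that same library, against 26.04 to 26.13 CPM. Acly was 248 CPM in untreated 6-week replicate 1, against 269 to 271 CPM.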

How the results depend on the processing

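Over 780 refits of the 13 members with values per library, 723 stayed on their side of the threshold and, where not called, within 1 SE, 28 lost a call, 12 gained one, 17 moved in size, and no called change turned its sign. Most of the 780 are refits of changes that were not called. All 28 lost calls were of Ebp, Insig1 and Insig2 with treatment at 10 weeks, which stayed called in 13, 9 and 10 of 20 alternative fits. Hmgcs1 with age, not called, went from -0.05 to 0.12 without untreated replicate 6, and Sqle with treatment from -0.02 to -0.21. The members called with 2DG at 10 weeks (3) became 0 in a fit of the 2 groups compared, 10 without untreated replicates 6 and 8, and 0 to 7 with each library left out. With voom or with no low-count filter there were 2 (Insig1 and Ebp), and Insig2 had an adjusted p of 0.0662 and 0.0833. Summing Fdps, Idi1, Fdft1, Acaca, Acat2 and Insig1 with their copies, chosen after seeing the data, left 3 called (Insig1 adjusted p = 0.0397). With age, 0 members became 7 without replicates 6 and 8, and 0 to 1 with each library left out. Over all genes, 1376 called with 2DG at 10 weeks became 2304 with DESeq2, 581 with 2 groups, 3193 without replicates 6 and 8, and 514 to 2209 with each library left out. The 1 gene called with age became 682 with DESeq2, 102 with no filter, 0 with 2 groups, 18 with voom, 2303 without replicates 6 and 8, and 0 to 1563 with each library left out. The 24 genes for treated against 6-week mice became 902 with DESeq2, 98 with no filter, 1367 with 2 groups, 1665 with voom, 758 without replicates 6 and 8, and 1 to 354 with each library left out. The cause was not tested. No paired analysis was possible because replicate numbers run from 1 to 12 across the groups. Idi1, at 17 to 48 counts, had the widest interval of the 31.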
